A study of Mus musculus with 9 samples.

Results

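DNA methylation of splenic B cells homozygous for a point mutation of Kmt2d was set against that of wild-type splenic B cells, gene by gene, in whole-genome bisulfite sequencing. The homozygous library is called HOM and the wild-type library WT. Of 21900 protein-coding genes in the RefSeq table of mouse assembly GRCm38.p6, 20665 lie on autosomes. Genes were kept where at least 3 CpGs and 30 CpG reads lay in the region in both libraries. A CpG read is 1 call of 1 CpG by 1 read, and the level of a region is the sum of methylated calls over the sum of all calls, in percent. This left 19534 gene bodies (gene start to gene end), 19297 CpG-richer gene ends and 19022 genes with both. A gene end is a window from 1000 bp outside to 500 bp inside the gene, and the CpG-richer of the 2 windows was taken for every gene. That window held an annotated start in 11141 genes and did not in 4237. In 3919 genes the annotation used here gave no start. Regions were not divided into exons, introns and untranslated parts, for lack of an exon annotation here.

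The series holds 9 mouse samples, 6 of splenic B cells, in pairs for 3 genotypes, and the others of blood depleted of B cells, which was not analysed here. HOM mice carry on both alleles of Kmt2d an A>T change at position 98835228 of chromosome 15, labelled Ile5482Asn. HET mice carry it on 1 allele and WT mice on none. B cells were enriched from whole spleen by magnetic removal of other cells, with no treatment, and neither age nor strain is given in the labels. The deposited table holds 1 column pair per genotype, treated as 1 library. The labels do not say which of a genotype's 2 samples a column holds, nor whether reads of both were pooled. The column names of HET and HOM carry the label ENU, a chemical mutagen that leaves point mutations across a genome, and the WT name does not. With 1 library a side there is no replicate check, so every test below compares 2 libraries and not 2 genotypes. HET values are printed beside the others and enter no test.

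KMT2D is a histone methyltransferase that places monomethylation on lysine 4 of histone H3 at enhancers and around promoters, and KMT2D is among the genes most often mutated in B cell lymphoma. Unmethylated lysine 4 of histone H3 is bound by the de novo DNA methyltransferases, and methylation of that lysine repels them. In most mammalian cells gene bodies are methylated, and CpG-rich promoters are not.

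The upstream sequences of 7 genes are shown. The libraries differed in their annotated transcription start windows, which run from 250 bases before to 50 bases after the start. These 7 genes were chosen after their values were seen, and some windows of genes not printed differed more than some of these. Asb4 encodes a substrate adaptor of a ubiquitin ligase and lies in an imprinted cluster, Prkag2 a regulatory subunit of AMP-activated kinase, Gimap4 a lymphocyte GTPase, and Ptpn6 the phosphatase SHP-1 that restrains B cell receptor signalling. Adgb encodes androglobin, Atp6v0e2 a subunit of the vacuolar proton pump and Dnajb3 a co-chaperone. The 250 bases before each start are printed 5′ to 3′ on the gene's strand from RefSeq (GRCm38.p6), with the cytosine and guanine of every CpG in capitals. They lie at chr6:5383136-5383385 (Asb4, plus strand), chr5:24995754-24996003 (Prkag2, minus strand), chr6:48684328-48684577 (Gimap4, plus strand), chr6:124738710-124738959 (Ptpn6, minus strand), chr10:10472400-10472649 (Adgb, minus strand), chr6:48537319-48537568 (Atp6v0e2, plus strand) and chr1:88205749-88205998 (Dnajb3, minus strand). The Asb4, Ptpn6, Atp6v0e2 and Dnajb3 stretches hold 4, 7, 10 and 11 whole CpGs.
Asb4: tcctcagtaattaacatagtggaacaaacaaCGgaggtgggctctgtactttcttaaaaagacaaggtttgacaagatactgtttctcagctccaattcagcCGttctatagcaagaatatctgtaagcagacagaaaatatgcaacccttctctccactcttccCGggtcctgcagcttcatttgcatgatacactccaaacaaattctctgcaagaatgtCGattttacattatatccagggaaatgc
Prkag2: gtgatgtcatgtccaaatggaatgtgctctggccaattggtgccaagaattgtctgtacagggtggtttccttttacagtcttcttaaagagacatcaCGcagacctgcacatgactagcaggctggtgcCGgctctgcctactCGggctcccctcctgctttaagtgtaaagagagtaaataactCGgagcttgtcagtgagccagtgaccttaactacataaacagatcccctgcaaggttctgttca
Gimap4: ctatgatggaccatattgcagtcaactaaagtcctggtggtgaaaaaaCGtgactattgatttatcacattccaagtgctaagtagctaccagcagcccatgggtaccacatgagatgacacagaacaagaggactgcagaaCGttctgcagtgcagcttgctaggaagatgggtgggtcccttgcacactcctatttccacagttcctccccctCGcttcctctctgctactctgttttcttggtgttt
Ptpn6: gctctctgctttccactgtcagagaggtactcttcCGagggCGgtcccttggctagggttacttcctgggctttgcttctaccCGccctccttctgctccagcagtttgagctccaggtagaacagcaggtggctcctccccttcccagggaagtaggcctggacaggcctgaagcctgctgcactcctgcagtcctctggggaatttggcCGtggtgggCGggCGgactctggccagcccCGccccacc
Adgb: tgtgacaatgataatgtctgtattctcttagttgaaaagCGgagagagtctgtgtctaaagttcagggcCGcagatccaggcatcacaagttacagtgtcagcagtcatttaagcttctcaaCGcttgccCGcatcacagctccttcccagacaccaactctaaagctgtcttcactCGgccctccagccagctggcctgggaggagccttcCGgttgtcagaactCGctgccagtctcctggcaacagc
Atp6v0e2: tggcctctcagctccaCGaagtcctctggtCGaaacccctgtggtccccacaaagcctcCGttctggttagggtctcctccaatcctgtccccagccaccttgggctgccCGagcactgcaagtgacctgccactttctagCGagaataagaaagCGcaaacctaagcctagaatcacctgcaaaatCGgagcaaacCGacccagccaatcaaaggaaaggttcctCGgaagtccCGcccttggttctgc
Dnajb3: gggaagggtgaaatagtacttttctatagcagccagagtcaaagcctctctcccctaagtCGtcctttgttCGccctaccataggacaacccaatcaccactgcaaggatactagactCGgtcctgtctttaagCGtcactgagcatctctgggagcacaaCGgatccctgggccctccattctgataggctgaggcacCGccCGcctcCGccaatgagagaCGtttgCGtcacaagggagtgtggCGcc

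Most printed CpGs with reads in both libraries moved with their window, as the choice of the windows by their values favours. The Adgb CpG 211 bases before the start (75% in WT, 60% in HOM) went the other way. So did the Dnajb3 CpG 190 bases before the start (33.3% in WT, 37.5% in HOM). At Asb4, the CpGs 219, 148 and 85 bases before the start had no methylated call in WT, among 8, 7 and 11 reads, and in HOM 2 of 3, 2 of 4 and 4 of 7 reads were methylated there. At the CpG 28 bases before the Asb4 start, the level was 20.6% (WT), 46.3% (HET) and 67.9% (HOM). At Prkag2, the CpGs 64, 106, 120 and 152 bases before the start stood between 5.26% and 21.4% in WT and between 45.0% and 61.5% in HOM, while HET stood between 9.09% and 19.4%. At Gimap4, the CpG 35 bases before the start went from 5.88% in WT to 53.8% in HOM, with 18.8% in HET. At Ptpn6, the CpGs 167 and 209 bases before the start had no methylated call among 12 and 9 WT reads, against 3 of 15 and 7 of 13 HOM reads. Reads at single CpGs were few, so these values show the pattern along the sequence, not a precise level of any position. Atp6v0e2 ran the other way. The CpG 140 bases before its start was methylated in 12 of 15 WT reads, 0 of 8 HET reads and 1 of 6 HOM reads. No HOM read covered the CpGs 109, 95 and 53 bases before the Atp6v0e2 start, which 15, 16 and 13 WT reads covered. At Dnajb3, the 13 CpGs from 45 bases after to 47 bases before the start had methylated calls in WT and 0 in HOM.

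Over all autosomal CpGs, the share of methylated calls was 76.0% (WT), 75.5% (HET) and 72.3% (HOM). HOM thus lay 3.70 points below WT, at 0.951 of its level, and a gene that moves only as the genome does would stand at 0.951 times its WT level. The relative difference of a gene is its HOM level minus that value. A region was called where the difference was at least 10 points and Fisher's exact test on the calls gave a Benjamini-Hochberg adjusted p below 0.05 over all regions of its kind. Calls of neighbouring CpGs come from the same reads, so these p-values are too small and the sizes matter more. The depth was 9.52 (WT), 13.4 (HET) and 10.2 (HOM) CpG reads per autosomal CpG. Coverage was placed differently in the libraries. HOM had 1.02 times the WT reads per CpG where no other CpG lay within 100 bp, and 1.17 times where 8 or more did. CpGs in dense stretches are the least methylated (26.1% in WT against 81.1% for isolated CpGs). A pooled level can therefore move with read placement even where no CpG changes. For this reason each value is also given with every CpG weighted alike in both libraries (Mantel-Haenszel weights, called the matched difference, with its 95% interval from counting error). With matched weights the genome-wide difference was -3.02 points and the ratio 0.960.

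Gene bodies were less methylated in HOM than in WT nearly throughout, and by about as much as the rest of the genome. The median body stood at 74.1% (WT), 73.7% (HET) and 70.6% (HOM). The median pooled difference was -3.28 points and the median matched difference -2.52 points. With matched weights 17617 bodies (90.2%) were lower in HOM. Relative to the genome-wide shift the median was 0.144 points, and 9332 of 19534 bodies lay below the scaled WT level and the rest at or above it. Raw, 753 bodies (3.85%) were called lower and 72 (0.369%) higher. Relative to the shift, 219 (1.12%) were called lower and 156 (0.799%) higher. Called bodies were mostly short. Of 3737 bodies under 5 kb, 261 were called lower raw, against 1 of 944 bodies of 200 kb or more.

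Many pooled calls were smaller with matched weights. Of the 753 bodies called lower, 420 had a matched difference under 5 points in size or of the other sign, and so had 34 of the 72 called higher. With matched weights 189 bodies (0.968%) passed as lower and 29 (0.148%) as higher, and relative to the shift 42 (0.215%) and 47 (0.241%). These counts take the pooled Fisher p-values and ask for a matched difference of at least 10 points. No test was run on the matched values. For the genes with the greatest differences both values are given below.

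**Figure D1:**
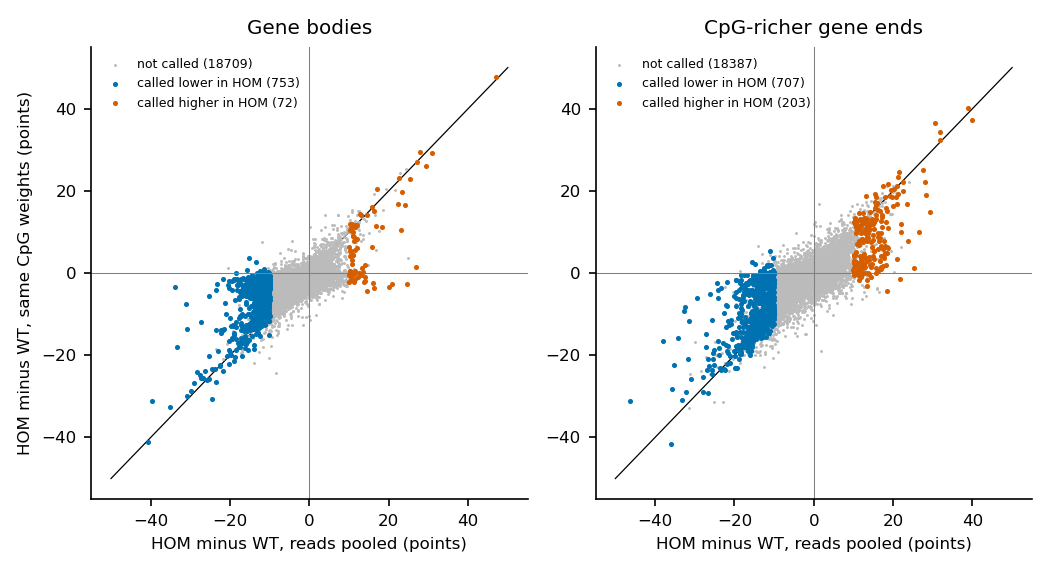
HOM minus WT methylation in percentage points, with reads pooled (horizontal axis) and with every CpG weighted alike in both libraries (vertical axis), for 19534 gene bodies (left) and 19297 CpG-richer gene ends (right), 1 point per region. Colours mark regions called lower (753 and 707) or higher (72 and 203) in HOM on pooled reads. Points on the diagonal have the same difference both ways, and many called points lie near a matched difference of 0.

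Along 12775 genes of at least 5 kb with an annotated strand, all libraries had the same shape, a trough at the start and a plateau over the body. In the 500 bp before the start the level was 12.6% (WT), 12.7% (HET) and 11.5% (HOM), and near the gene's 3′ end it was 83.7% in WT and 80.4% in HOM. With pooled reads the ratio of HOM to WT was lowest over the first 5% of the gene, at 0.892 (28.9% in WT, 25.8% in HOM). With matched weights the ratio there was 0.951 and the difference -1.38 points. The matched ratio was 0.957 in the 500 bp before the start, 0.964 at mid-gene and 0.966 in the 500 bp after the end. At these positions the matched ratio thus stayed between 0.951 and 0.966, while the level ran from a trough to a plateau.

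**Figure D2:**
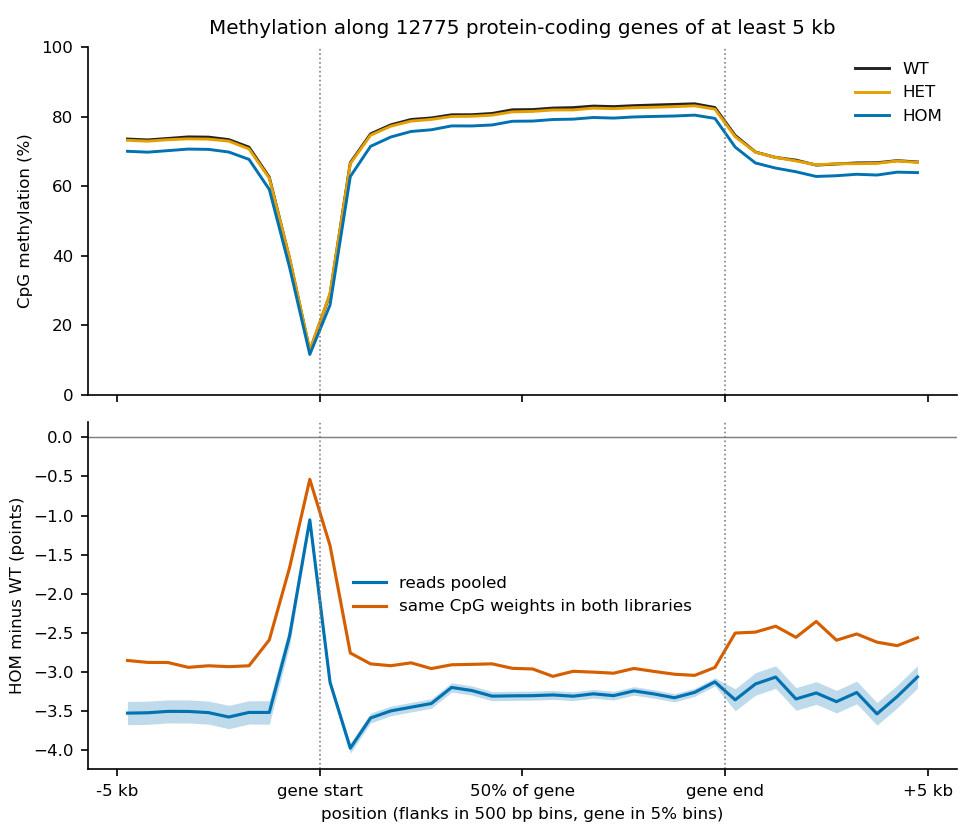
Top, methylation in percent along 12775 genes of at least 5 kb, aligned at gene start and gene end, for the WT, HET and HOM libraries (1 line each). Bottom, HOM minus WT in points with reads pooled (band, 95% counting interval) and with matched CpG weights. The pooled curve dips to -3.97 points just inside the gene, where the matched curve is at -2.76.

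The greatest relative losses among bodies with at least 100 CpG reads and 10 CpGs in both libraries included an uncharacterised gene, 2 receptors of natural killer cells and a liver gene. Gm7102, a predicted gene, stood at 53.2% (WT), 31.3% (HET) and 18.01% (HOM), a matched difference of -32.6 points (-39.0 to -26.1; Fisher adjusted p = 2.41e-23 on pooled reads) with 21 CpGs lower and 1 higher. Atp6v0e2 (chr6:48537569-48541801) stood at 69.3% (WT), 40.6% (HET) and 43.5% (HOM), with a matched difference of -26.0 points. In both genes HET lay well below WT as well. Crp, which encodes the acute-phase protein CRP made by the liver, stood at 91.3% (WT), 84.1% (HET) and 66.1% (HOM), with a matched difference of -25.8 points (-36.2 to -15.4) over 15 CpGs. Klrc1, which encodes the inhibitory receptor NKG2A, went from 76.8% to 45.9% with HET at 71.8%, and its matched difference was -13.6 points. Klra3, a Ly49 receptor gene in the same complex on chromosome 6, went from 81.8% to 58.3% with HET at 77.1%, a matched difference of -14.0 points. The Ly49 genes are close copies of each other, so reads could be placed at the wrong member. Rpp25l, a relative of an RNase P subunit, went from 44.2% to 21.8%, with a matched difference of -13.8 points. The pooled losses of Hoxa4, a homeobox gene (-25.3 points), and Alg2, a mannosyltransferase of N-glycan synthesis (-23.6 points), shrank to -5.59 and -4.13 points with matched weights.

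Among these bodies the single greatest gain was larger than the greatest loss. At 20 points or more, losses were called more often over all bodies, 47 against 15 raw and 19 against 16 relative to the shift. Sfn, which encodes the cell cycle regulator 14-3-3 sigma of epithelial cells, was the body with the greatest relative gain. Its level was 30.7% (WT), 35.2% (HET) and 77.7% (HOM), a pooled difference of 47.0 points (41.0 to 52.4, Fisher adjusted p = 1.08e-44) and a matched difference of 47.7 points. Of its CpGs, 28 were higher in HOM and 1 lower. In the 750 bp past the middle of the gene, in the direction of rising coordinates, Sfn stood between 18.3% and 30.7% in WT and between 80.3% and 80.6% in HOM, while HET stood between 23.7% and 37.8%. Beyond 1000 bp from the middle on that side WT and HOM were both above 80%. Lrrc10, a heart gene, went from 36.8% in WT through 53.7% in HET to 66.3% in HOM, with a matched difference of 26.1 points (20.7 to 31.4). Nnat, an imprinted gene expressed from the paternal allele, went from 36.2% through 43.3% to 58.7%, with a matched difference of 23.0 points and 50 CpGs higher against 7 lower. Lgals1, which encodes galectin-1, went from 22.1% through 28.8% to 45.2%, with a matched difference of 10.5 points (7.69 to 13.3). Krtcap3 went from 62.5% to 86.6%, with a matched difference of 16.4 points. Sap18b went from 36.4% to 61.9%, but HET stood above both at 84.2%. Sap18b, Dynlt1a and Gm3739 belong to groups of near-identical genes, where the placement of reads is uncertain. The pooled gains of Dynlt1a (26.8 points) and Gm3739 (20.8 points) came to 1.35 and -2.60 points with matched weights.

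**Figure D3:**
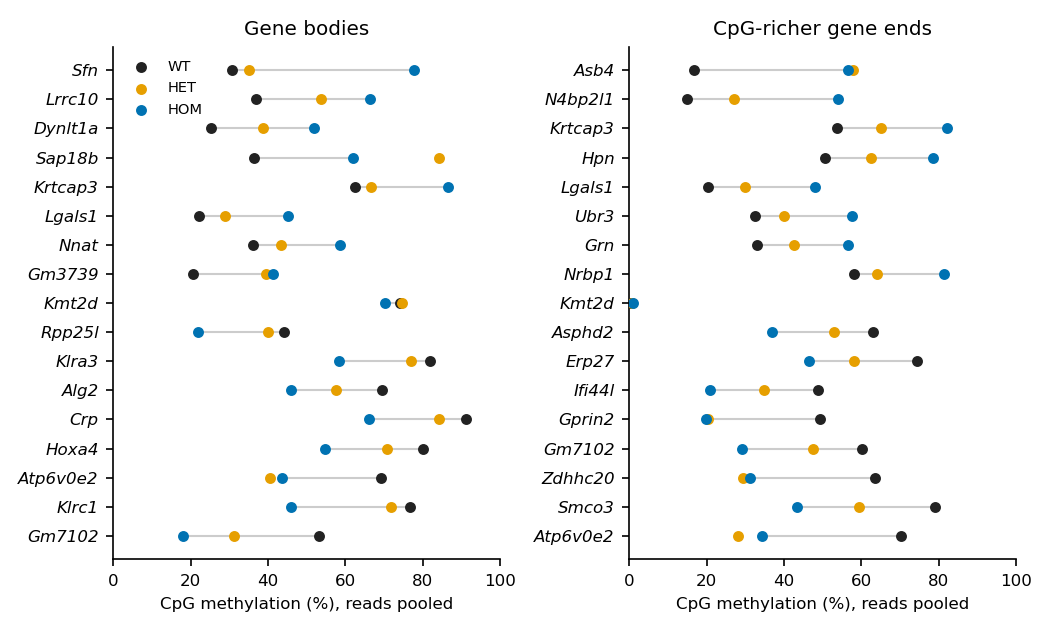
Pooled CpG methylation in percent in the WT, HET and HOM libraries for the gene bodies (left) and CpG-richer gene ends (right) with the greatest relative differences in either direction, and for Kmt2d. Each point is 1 library and grey lines join WT and HOM. Sfn stands at 77.7% in HOM against 30.7% in WT, and the Atp6v0e2 end at 34.4% against 70.3%.

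The median CpG-richer gene end was little methylated and moved little, but the ends differed widely. In both libraries 6297 of 19297 ends stood at 50% or more. The standard deviation of the matched difference was 4.36 points at ends and 2.96 points over bodies. The median end stood at 15.3% (WT), 15.7% (HET) and 13.9% (HOM), with a median pooled difference of -0.780 points, a relative one of -0.0697 points and a matched one of -0.501 points. Raw, 707 ends (3.66%) were called lower and 203 (1.05%) higher. Relative to the shift the order turned, with 285 (1.48%) lower and 356 (1.84%) higher. With matched differences and the pooled p-values, 371 (1.92%) were lower and 95 (0.492%) higher raw. Relative to the shift 90 (0.466%) were then lower and 174 (0.902%) higher. Of 641 ends called relative to the shift, 43 overlapped another called end, so neighbouring genes share some calls. No end passed from under 10% to 50% or more, or back. From under 10% in WT, 385 ends came to between 10% and 50% in HOM, and 847 made the reverse move. Between 10% and 50% on 1 side and 50% or more on the other, 126 ends moved up and 167 down. Of the ends called relative to the shift, 14 came from under 10% in WT and 24 fell to under 10% in HOM.

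Of the 8 ends with the greatest relative losses, 3 lay on chromosome 6, which holds 1031 of all 19297 ends. The Atp6v0e2 end (chr6:48536569-48538069), which holds the printed start, stood at 70.3% (WT), 28.1% (HET) and 34.4% (HOM). Its matched difference was -41.7 points (-46.9 to -36.5; Fisher adjusted p = 1.07e-26 on pooled reads), with 37 CpGs lower and 0 higher. The Smco3 end went from 79.0% through 59.4% to 43.3%, with a matched difference of -28.3 points. Coverage also differed there, with 200 (WT), 524 (HET) and 587 (HOM) CpG reads. The Erp27 end, of a chaperone gene of the endoplasmic reticulum near Smco3, went from 74.4% through 58.0% to 46.6%, a matched difference of -25.3 points. Off chromosome 6, the end of the interferon-induced gene Ifi44l went from 48.8% through 34.8% to 21.0%, a matched difference of -29.0 points (-38.0 to -20.0) with 12 CpGs lower and 0 higher. The Gm7102 end went from 60.1% to 29.1%, with a matched difference of -25.8 points. In these genes HET lay between WT and HOM, except at Atp6v0e2. The ends of Zdhhc20, a palmitoyltransferase gene, Gprin2 and Asphd2 had pooled differences of -32.4, -29.5 and -26.3 points and matched differences of -8.30, -6.00 and -5.21 points.

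Gains at named ends were led by Asb4 and N4bp2l1. The Asb4 end (chr6:5382386-5383886) stood at 16.7% (WT), 57.7% (HET) and 56.7% (HOM), with a matched difference of 37.1 points (30.7 to 43.6; Fisher adjusted p = 1.96e-23 on pooled reads), 19 CpGs higher and 0 lower. In the 250 bp before the annotated edge Asb4 stood at 34.1% (WT), 60.4% (HET) and 78.3% (HOM), and between 750 and 1000 bp inside the gene at 1.63%, 22.7% and 16.9%. The N4bp2l1 end (chr5:150598178-150599678) went from 14.9% through 26.9% to 53.8%, with a matched difference of 40.3 points (32.6 to 47.9), 18 CpGs higher and 1 lower. That window does not hold the annotated start of N4bp2l1, whose start window stood at 0.943% in WT and 0 in HET and HOM. The end of Hpn, which encodes the serine protease hepsin, went from 50.5% through 62.6% to 78.6%, a matched difference of 22.3 points. The Lgals1 end went from 20.4% through 29.8% to 47.9%, a matched difference of 25.2 points (19.6 to 30.8). The ends of Krtcap3 and Nrbp1 overlap and had matched differences of 18.9 and 16.8 points. The end of Grn, the progranulin gene, had 23.8 points pooled and 7.78 matched, and that of the ubiquitin ligase gene Ubr3 25.2 points pooled and 1.24 matched.

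**Figure D4:**
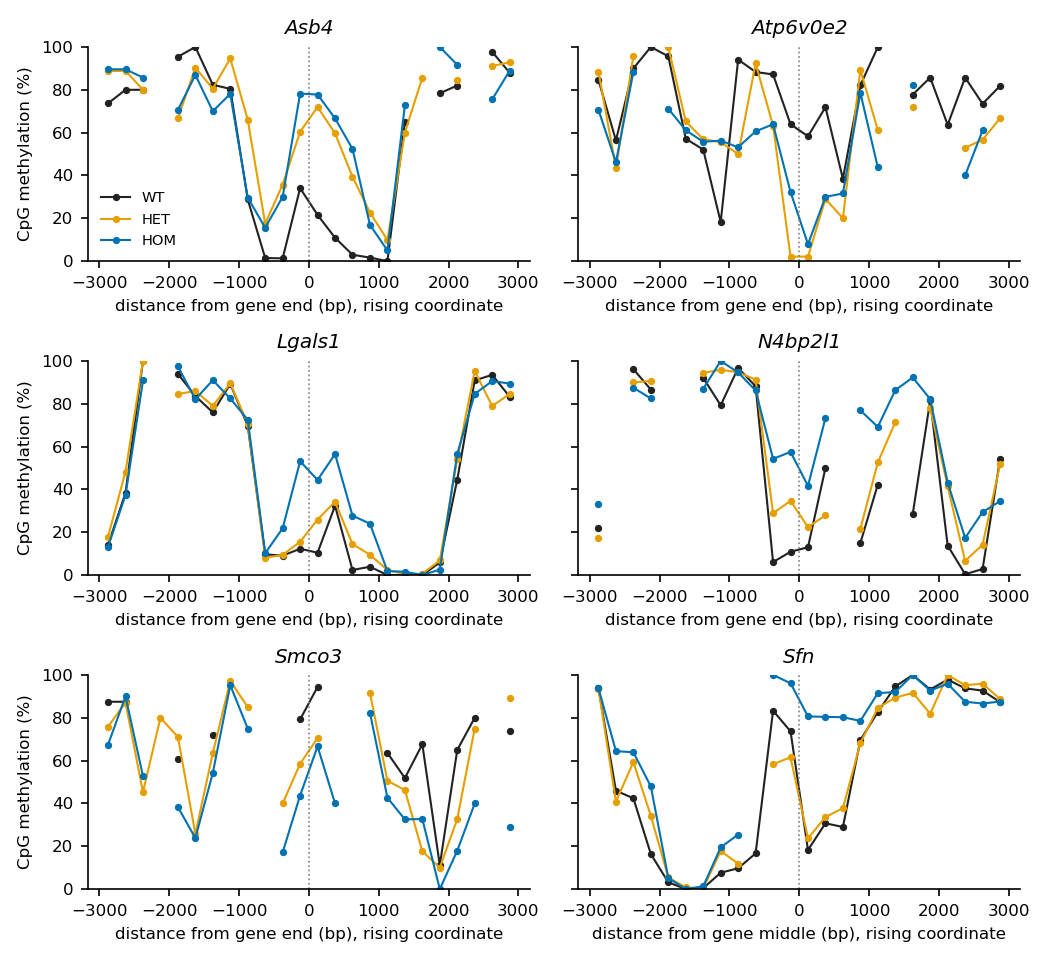
Methylation in percent in windows of 250 bp from 3 kb below to 3 kb above the end (for Sfn the middle) of 6 genes, by library, along rising coordinates. Windows with under 10 reads in a library are left out. HOM and HET lie above WT around Asb4, HOM lies above WT and HET at Lgals1 and Sfn, and both mutant libraries lie below WT at Atp6v0e2.

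The other end of each gene, the CpG-poorer window, was highly methylated and moved with the genome. The median of 18160 such ends was 86.6% (WT), 85.8% (HET) and 82.6% (HOM), with a pooled difference of -3.01 points, a matched one of -2.80 and a relative one of 0.910. Raw, 764 (4.21%) were called lower and 151 (0.831%) higher, and relative to the shift 87 (0.479%) and 227 (1.25%).

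Most genes called in the body or at the end were called in that region alone. Relative to the shift, 183 genes were called lower and 116 higher in the body alone, and 256 lower and 324 higher at the end alone. Of those called in both, 27 were lower in both, 28 higher in both, 0 lower in the body and higher at the end, and 1 the reverse. Across 19022 genes the matched differences of body and end had a Pearson's r of 0.345, and over 9274 genes of at least 20 kb, where the windows share fewer reads, 0.179. These are descriptions across genes of the same 2 libraries. Genes called lower in both include Gm7102 and Atp6v0e2, and genes called higher in both include Nnat, Lgals1, Krtcap3 and Sap18b.

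The strand of 12458 genes came with the RefSeq start sequences, so 15112 windows from 250 bases before to 50 after a start could be read directly. Windows on chromosome 18 were not analysed here. These windows were added after the values of the gene ends had been seen. Of them 11430 (75.6%) were under 10% in both libraries, and the median was 0.673% in WT and 0.637% in HOM. Raw, 32 (0.212%) were called lower and 33 (0.218%) higher. Relative to the shift, 7 (0.0463%) were called lower and 35 (0.232%), of 33 genes, higher. With matched weights all 35 had the same sign, 32 were at least 10 points, and the interval lay above 0 in 34. The matched values come from the same reads that chose these windows, so they are no separate check of the gains. Their median level was 18.2% (WT), 34.97% (HET) and 49.3% (HOM). Of the 33 genes, 8 lay on chromosome 6, which holds 5.45% of the windows. Another 4 lay on chromosome 4, which holds 1211 of the 19297 CpG-richer gene ends.

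The start windows with gains include those of the printed genes. The Ptpn6 window stood at 18.2% (WT), 19.3% (HET) and 41.8% (HOM), a matched difference of 24.1 points with all 8 CpGs higher. The Gimap4 window stood at 13.5%, 22.5% and 47.5%, a matched difference of 36.8 points over 4 CpGs. Asb4 stood at 31.7%, 63.3% and 76.8% (matched difference 42.5 points), Prkag2 at 17.1%, 20.5% and 52.4% (35.4 points), and Adgb at 7.19%, 21.0% and 35.6% (26.8 points). HET thus lay near WT at Ptpn6 and Prkag2 and near HOM at Asb4. The other genes with gains were Rfx8, Fam78a, Naif1, Ak1, Btbd3, Zmynd8, Ankrd6, Eva1b, Pafah2, Slc2a5, Krtcap3, Slc5a1, Medag, Nobox, Gm1070, Rtkn, Dctn1, Pianp, Npas1, 2200002D01Rik, 1600014C10Rik, Slc6a16, Ccdc114, Pgpep1l, Art5, Tenm3, Col6a5 and Slc7a7. The 1600014C10Rik window had no methylated call in WT, and stood at 18.03% in HET and 17.3% in HOM. Coverage also differed there, with 298 (WT), 1209 (HET) and 572 (HOM) CpG reads over 20 CpGs. Whether reads were placed wrongly in that window was not tested. The 7 windows with losses were those of Unc80, Dnajb3, Nckap5, Gpsm1, Atp6v0e2, Dnah6 and Cacng2. Atp6v0e2 stood at 62.0% (WT), 1.76% (HET) and 18.6% (HOM). Dnajb3 stood at 34.8%, 16.5% and 11.4%, a matched difference of -25.9 points.

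Lists of genes for B cells and for other cells of the spleen were read next, with the median of all bodies (-2.52 points matched) and of all CpG-richer ends (-0.501 points matched) beside them. Of 20 B cell identity genes, 19 bodies were lower in HOM both pooled and matched, against 83.2% and 90.2% of all bodies. The list's median was -4.76 points pooled, -4.62 matched and -1.36 relative to the shift. Cd79a, a signalling chain of the B cell receptor, was the 1 body called, at 50% (WT), 28.2% (HET) and 36.2% (HOM), with a matched difference of -11.7 points (-15.9 to -7.53). Its partner Cd79b stood at 47.5%, 43.8% and 40%, with a matched difference of -8.78 points. The Cd72 body, of an inhibitory co-receptor, stood at 50.6%, 44.0% and 42.2%, with a matched difference of -5.86 points. Cd37, a tetraspanin gene, was the body above WT, at 39.3% in WT and 45.5% in HOM, but its matched interval spanned 0. The median B cell end was 46.3% (WT), 36.6% (HET) and 39.2% (HOM). Raw, 4 of 20 B cell ends were called lower and 0 higher, against 3.66% and 1.05% of all ends. The end of the adaptor gene Blnk stood at 48.2%, 24.3% and 30.5%, a matched difference of -16.0 points, and was the 1 end called relative to the shift. The end of the kinase gene Blk stood at 64.9%, 59.6% and 49.5%, a matched difference of -12.8 points. The end of the adaptor gene Bank1 stood at 94.7%, 90.9% and 82.4%, a matched difference of -11.9 points. The end of Ms4a1, which encodes CD20, lay above WT at 15.04%, 14.4% and 26.2% (matched difference 11.5 points) and was not called. In most of these genes HET lay below WT too.

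T cell genes showed smaller losses. Over 20 bodies the median was -1.33 points pooled, -0.488 matched and 1.78 relative to the shift. Of these bodies 0 were called, against 3.85% lower and 0.369% higher raw among all bodies. At their ends the median level was 43.1% (WT), 51.0% (HET) and 53.6% (HOM), but the median difference was 1.52 points pooled and -0.270 matched, so its sign hung on the weights. Of 20 ends, 3 were called higher and 1 lower raw, against 1.05% and 3.66% of all ends. Among those called higher, the end of Lck, the kinase of the T cell receptor, stood at 53.2%, 57.6% and 63.7% (matched difference 13.5 points), and that of Cd5, which some B cells also express, at 40.2%, 44.3% and 53.6% (11.9 points). The Cd8a end was called lower raw, at 64.7%, 76.3% and 54.6%, with a matched difference of -6.58 points. The end of Cd3e, a chain of the T cell receptor complex, stood at 52.5% (WT), 77.0% (HET) and 55.1% (HOM), with a matched difference of 5.33 points. B cells make little use of most of these genes, and how many other cells each library held was not tested.

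Markers of other cells of the spleen gave few calls, but lists this short would hold few at the shares of all genes. Relative to the shift, 1.12% of all bodies were called lower and 0.799% higher, and 1.48% and 1.84% of all ends. Of 10 natural killer genes, 0 bodies and 0 ends were called, and the median body difference was -3.97 points matched. That list did not hold Klrc1 and Klra3, the natural killer receptor genes named above, whose bodies were called lower. Of 15 myeloid genes, S100a8, a calcium-binding protein gene of neutrophils, was called higher at its end, at 36.5%, 59.7% and 52.2% (matched difference 13.2 points), and in its body relative to the shift (6.03 points). The ends of Fcgr3 and of the haemoglobin gene Hbb-bs had pooled differences of -27.2 and -30.0 points over 61 HOM reads or fewer and were not called. Among 12 erythroid and platelet genes, the end of Pf4, platelet factor 4, stood at 20.8%, 25.9% and 30.4% and was called higher relative to the shift, with a matched difference of 2.84 points.

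**Figure D5:**
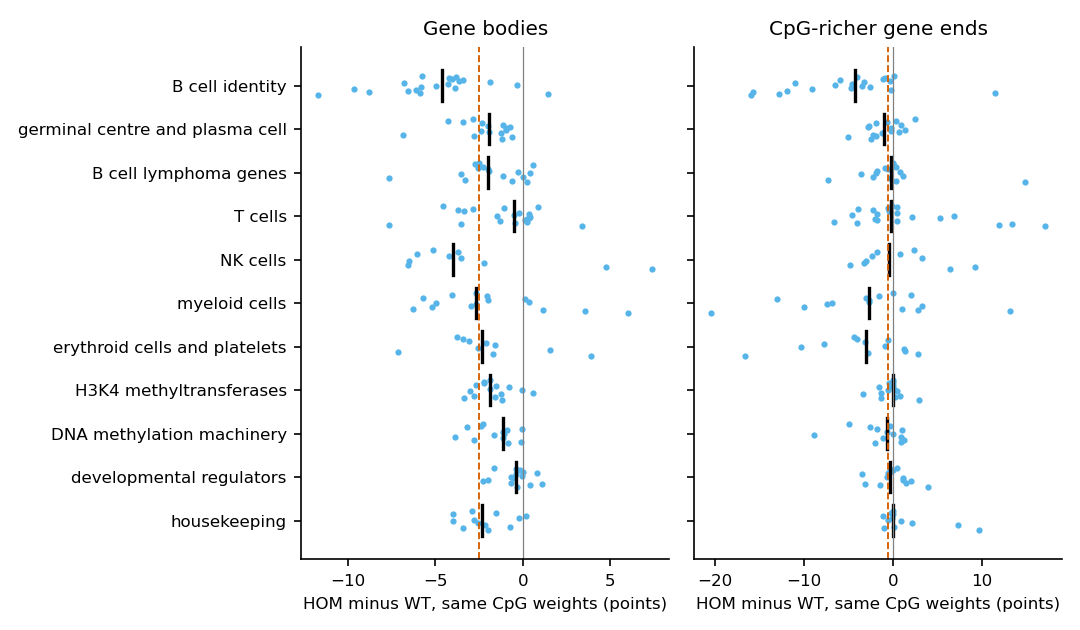
Matched HOM minus WT difference in points for the genes of 11 lists, bodies at left and CpG-richer ends at right. Each point is 1 gene, black bars are list medians and the dashed line is the median of all bodies (-2.52) or all ends (-0.501). B cell identity genes have a median of -4.62 points in bodies and -4.33 at ends.

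The Kmt2d body was lower in HOM, by less than the genome with matched weights. That body (chr15:98831669-98874077) stood at 74.1% (WT), 74.6% (HET) and 70.3% (HOM), -3.77 points pooled (-5.02 to -2.52), -0.170 points relative to the shift and -1.88 matched (-2.64 to -1.12), against -3.02 matched over the genome. The sign of its relative difference turned with matched weights, to 1.05 points. Its CpG-richer end stood at 0.366%, 0.561% and 0.997%, and its annotated start window at 0.820% in WT and 0 in HOM. Of 15 genes of H3K4 methyltransferases and KMT2D partners, 14 bodies were below WT with matched weights, against 90.2% of all bodies. With pooled reads 11 were below WT and 4 below the scaled WT level. The median relative difference of these genes was 2.04 points pooled and 1.11 matched. Their called regions were 1 body, lower, and 1 end, higher. The body of Kmt2e, a distant relative of Kmt2d, went from 66.2% to 51.5%, which came to -1.22 points with matched weights. The end of Ncoa6, a subunit of the KMT2D complex, went from 9.11% to 25.8%, which came to 2.91 points with matched weights. Neither reached 3 points with matched weights. Of 13 DNA methylation genes, which include the methyltransferases Dnmt1 and Dnmt3a and the dioxygenases Tet1 to Tet3, 0 bodies and 0 ends were called. Relative to the shift, 1.12% of all bodies were called lower and 0.799% higher, so a list this short would hold few calls. All 13 bodies were lower with matched weights, with a median of -1.11 points. The Tet2 end had a level of 11.98% in WT against 4.15% in HOM, and its matched interval spanned 0.

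Of 16 germinal centre and plasma cell genes, 0 bodies and 0 ends were called. Relative to the shift, 1.12% of all bodies were called lower and 0.799% higher, and 1.48% and 1.84% of all ends. Lists as short as those here would hold few calls at these shares. All 16 bodies were below WT with matched weights, against 90.2% of all bodies, and their median was -1.95 points. The body of Icosl, a ligand for T cell help, stood at 53.5%, 58.3% and 43.9%, but its matched difference was -1.19 points. Among genes mutated in B cell lymphoma or tied to KMT2D there, the body of the tumour suppressor gene Tnfaip3 stood at 58.4%, 66.4% and 60.7%, with a matched difference of -0.603 points whose interval (-2.48 to 1.27) spanned 0, and that of the histone methyltransferase gene Ezh2 at 74.8%, 69.8% and 66.2%, with a matched difference of -3.29 points. Developmental regulators, with a median body level of 6.25% in WT and 5.34% in HOM, and housekeeping genes had no call in bodies or ends.

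Sequence differences between the mice were looked for through CpGs that read as unmethylated in 1 library and methylated in the other, at most 5% against at least 75% with at least 8 reads in both. There were 1512 on the autosomes, and 1283 (84.9%) of them lay on chromosomes 4, 6, 15 and 19, with 683 on chromosome 6. Such a CpG can be a base that differs between mice, since bisulfite sequencing cannot tell a thymine from an unmethylated cytosine. They lay in 394 of all 19534 bodies and 10 of all 19297 CpG-richer ends, and in 12 of the bodies and 0 of the ends called relative to the shift. Without them 217 bodies were called lower and 157 higher. Chromosome 6 had 29 ends called lower and 30 higher relative to the shift among 1031, where 1.48% and 1.84% of all ends were called. Of the 34 named values, 17 lay off chromosomes 4, 6, 15 and 19. On them, besides the chromosome 6 genes, lay Sfn, Alg2 and Rpp25l (chromosome 4), Gm7102 (19), and Lgals1 and Kmt2d (15). The part that differences in sequence between the mice have in the values on these chromosomes was not tested.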

How the data were processed

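Whole-genome bisulfite sequencing covered splenic B cells of 3 genotypes. The deposited table gives, per the file headers, the count of methylated reads and the count of covering reads for each of 21875444 CpGs, with no scaling. The submitters' processing notes name the build mm10 and the tools Bismark, Bowtie2, Trim Galore 0.2.8, Picard 1.91, MethylDackel, BWA 0.7.13 and Picard 2.3.0, in 2 sets. They do not tie a set, or a filter, to the columns. Every CpG of the RefSeq start sequences (315831 of 315831) stood at the same position in the table, so the coordinates are those of GRCm38, counted from 1.

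Levels, differences, Fisher's exact tests and Benjamini-Hochberg adjustment were computed in python 3.11.15 with numpy 2.4.6, pandas 2.3.3 and scipy 1.17.1, over all regions of a kind, and checked on simulated data. The simulated calls were independent of each other, so that check does not cover calls shared along a read or differing read placement. The relative test multiplied the WT methylated calls by the genome-wide ratio. Intervals are Newcombe's for pooled differences and Sato's for matched ones, at 95%, and cover counting error only. The WT library held 193984954 autosomal CpG reads and HOM 208447711. Named genes are the 8 regions per direction and kind with the greatest relative difference among those called both raw and relative (at least 100 CpG reads and 10 CpGs), Kmt2d, and up to 4 genes per list. All gene lists and the members were chosen with earlier results of these data known. Matched weights and start windows were added after values were seen. Alternatives covered the read minimum, the size of the difference, the shift, CpG weights, CpGs at least 150 bp apart, variant-like CpGs, region bounds and 4 chromosomes. Results for some members of these lists are not reported here.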

Additional observations from a re-analysis of the deposited data

How the results depend on the processing

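No paired analysis was possible because the table holds 1 column pair per genotype, and for the same reason no replicate could be left out. A read minimum of 100, leaving out variant-like CpGs and leaving out chromosomes 4, 6, 15 and 19 (the last chosen after seeing the data) kept all counts of calls within 1.5 times. With the read minimum of 100 the median difference of ends was -0.707. The values below run in the order bodies lower and higher raw, bodies lower and higher relative, then ends likewise, against 753, 72, 219, 156, 707, 203, 285 and 356. With differences of at least 20 points they were 47, 15, 19, 16, 62, 26, 28 and 41. With CpGs weighted equally they were 180, 29, 33, 50, 365, 92, 78 and 162. With matched weights (added after seeing the data) they were 189, 29, 42, 47, 371, 95, 90 and 174. The equal and matched weights kept the pooled p-values and changed only the size of the difference. With CpGs at least 150 bp apart, which keeps far fewer reads, higher raw bodies numbered 28, relative bodies 63 and 35, and ends 6, 4, 4 and 5. Without 2000 bp at either gene end, where short genes drop out, bodies numbered 291, 31, 87 and 75. With a window of 500 bp to either side, lower raw ends numbered 395 and relative ends 110 and 198. With a constant shift in points, higher relative bodies numbered 247 and ends 657.

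The median raw difference of bodies was -2.51 points with CpGs weighted equally, -2.52 with matched weights, -3.44 with CpGs 150 bp apart and -3.13 without gene ends. The median relative difference of bodies, near 0, reversed to -0.0731 with the ratio of CpGs outside genes, and was 0.415 with a constant shift, 0.749 weighted equally, 0.364 with CpGs 150 bp apart and 0.927 without gene ends. The median raw difference of ends was -0.480 weighted equally, -0.501 with matched weights, -1.48 with CpGs 150 bp apart and -0.256 in the narrower window. The median relative difference of ends reversed to 2.92 with a constant shift and 0.0672 weighted equally, and was -0.113 with the ratio outside genes, -0.0210 with matched weights, -0.0203 with CpGs 150 bp apart and 0 in the narrower window. Among named genes, the relative difference reversed for the Gm3739 body (-1.39, matched weights), the Gprin2 end (0.617, weighted equally) and the Kmt2d body (1.49 weighted equally, 1.05 with matched weights, 1.89 with CpGs 150 bp apart). Of the 34 named values, 24 kept their direction and side of the threshold with matched weights. With CpGs 150 bp apart, 11 did, 20 no longer passed and 1 reversed, and the others gave no value. The cause was not tested. Depth limits short regions most, since they hold the fewest CpG reads.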

Other observations

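The protamine cluster on chromosome 16 held neighbouring genes with opposite differences, singled out after their values were seen. These genes encode the proteins that pack sperm DNA. The Tnp2 body, of a transition protein, stood at 43.4% (WT), 66.4% (HET) and 60.4% (HOM), a matched difference of 20.3 points (11.7 to 29.0). The Prm1 body, of protamine 1, stood at 80.4%, 73.7% and 57.3%, a matched difference of -19.0 points (-27.6 to -10.4). Between them, Prm3 stood at 88.5%, 83.1% and 78.7% and Prm2 at 93.5%, 93.3% and 85.6%, and neither was called. Prm2 ends 4226 bp before Prm1 begins.

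Olfactory receptor bodies, among the most methylated, had a median of 84.3% in WT and 80.6% in HOM, and 58 of 842 (6.89%) were called lower raw against 3.85% of all bodies. Among all bodies under 5 kb, 6.98% were called lower raw, and gene lengths were not matched here. Relative to the shift 4 olfactory receptor bodies (0.475%) were lower and 6 (0.713%) higher, against 1.12% and 0.799% of all bodies. Of the family's ends, 2.80% were called lower raw against 3.66% of all ends. Histone bodies had a median of 0.483% in WT and 0.335% in HOM, with 0 of 66 called by Fisher's exact test raw or relative. Of all bodies with a mean level of WT and HOM under 10%, 0 of 512 were called. Hox ends had 3 of 39 lower and 2 higher relative to the shift, against 1.48% and 1.84% of all ends. Hoxa5 stood at 86.3%, 72.9% and 70.4%, a matched difference of -12.0 points. Ribosomal protein bodies had a median of 20.1% in WT and 17.4% in HOM, and 1 of 79, Rpl23, was lower relative to the shift. Clustered protocadherins, cell adhesion genes of neurons, had 18 of 57 ends higher relative to the shift, but these 18 lay in 4 windows whose starts were within 10 bp, the shared end of the cluster. There Pcdhga1 stood at 55.4%, 58.8% and 64.1%. The pattern used for keratins also took Krtcap3, which is not a keratin.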
